A study of Mus musculus with 16 samples.

Results

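Memory CD4+ T cells of WT mice were compared between the 2 mouse lines of the study. The comparison holds 8 samples of the 16 in the series, namely the 4 WT samples of the HP1α line and the 4 WT samples of the HP1γ line, chosen by genotype and line in the sample titles. A treatment label on the samples speaks of transferred regulatory T cells, does not match the memory cells named in the titles, and was not used. The cells carried the CD4+CD25low/-CD62L-CD44high phenotype and were sorted from the spleen of young adult, sex-matched mice. The paper states that male mice were used for its sequencing work. WT mice of the HP1α line were Hp1a+/+ offspring of intercrossed heterozygotes, in a line whose floxed Hp1a allele had been excised by a CMV-cre transgene, which is active in all tissues. WT mice of the HP1γ line were homozygous for the floxed Hp1g allele and carried no Cd4-cre transgene, which is active in T cells. Both lines were maintained on a mixed 129/Sv and C57BL/6 background, so that neither WT group is an inbred strain, and the sources used here give no litter, day of sorting, time of day or sequencing run for the samples. Line, floxed allele and any difference in handling therefore cannot be told apart. The KO samples, 4 HP1α KO (Hp1a-/-) and 4 HP1γ KO (Hp1g-/-, with Cd4-cre), were used only as a second set of mice of the same lines, and a difference between them also includes that between the knockouts.

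Memory CD4+ T cells are antigen-experienced cells that persist in lymphoid organs, and a fraction of them can be recalled to make the cytokines of the Th1, Th2 or Th17 programs. Mice of a mixed background differ from one another in blocks of chromosome inherited from either parental strain, and a block carried by one line and not by the other can alter neighbouring genes in all mice of that line. HP1α (Cbx5), HP1β (Cbx1) and HP1γ (Cbx3) are heterochromatin proteins that bind methylated histone H3 lysine 9.

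RNA-Seq gave 27515009 to 38853750 counts per sample in HP1α line WT and 32325493 to 40199600 in HP1γ line WT (two-sided exact permutation p = 0.429). The 13 identity markers of CD4+ T cells summed to between 7020 and 7380 CPM in the HP1α line and between 7070 and 7670 CPM in the HP1γ line (exact permutation p = 0.286), with 0 of 13 called. CPM are counts scaled to the normalized size of each library. B cell markers summed to between 379 and 685 CPM in the HP1α line and between 313 and 401 CPM in the HP1γ line (exact p = 0.0857), with 0 of 9 called. Most B cell genes were nonetheless lower in the HP1γ line. In a list of 12 tested, the median log2 difference was -0.42 and 1 was above 0. In 31 immunoglobulin segments the median was -1.27 and 6 were above 0. None of either group was called. Between the KO samples the medians were -0.7 and -1.26, with 2 and 3 genes called lower. Markers of myeloid cells, NK cells, CD8+ T cells, γδ T cells, erythroid cells and stroma had exact p between 0.0571 and 0.914, and 0 members of these lists were called. The sums of CD8+ T cell markers were 5.09 to 6.34 CPM and 5.74 to 10.4 CPM in the respective lines, and the stromal marker Col3a1 was at 0 in all 8 samples. Erythroid markers varied within both lines, from 11.6 to 372 CPM in the HP1α line and from 32.8 to 370 CPM in the HP1γ line. In bulk samples, fewer cells of a type and less RNA per cell cannot be told apart.

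Of 14804 genes tested, 235 (1.59%) were higher and 47 (0.317%) were lower in the HP1γ line, with an adjusted p under 0.05 in edgeR's quasi-likelihood test and an absolute log2 difference above 1. Genes past both thresholds are referred to as called, and all differences are HP1γ line minus HP1α line. The adjusted p alone was under 0.05 for 1222 genes that were higher and 674 that were lower, together 12.8% of the genes tested. The 4 samples of one line lay entirely above or below those of the other for 216 of the 235 genes called higher and 43 of the 47 called lower, against 19.5% of all genes tested. The genes were called from these same samples, so their separation is no further evidence for the calls. Most differences were moderate, with a median log2 difference of 1.32 for the genes called higher, and 38 of the 235 were above 2. The called genes were expressed at low levels, since 65 of the 235 (27.7%) and 20 of the 47 (42.6%) had a mean below 1 CPM, against 15.5% of the genes that were not called. Protein-coding genes made up 189 of the 235 but only 19 of the 47. The number of genes called higher dropped to 117 without HP1α WT replicate 1, to 143 without HP1α WT replicate 2, to 109 without HP1γ WT replicate 1 and to 119 without HP1γ WT replicate 2. The number called lower was 19, 31, 13 and 18 without HP1α WT replicate 1, HP1α WT replicate 4, HP1γ WT replicate 1 and HP1γ WT replicate 2.

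The KO samples share no mouse with the WT samples and gave 576 genes higher (3.83%) and 75 lower (0.499%) in the HP1γ line, together 4.33% of 15020 tested. The paper used littermates, so litter or handling may be shared and the 2 sets are not fully independent. Dusp16 was at 17.6, 14.6, 6.08 and 7.93 CPM in HP1γ WT and at 19.1, 17.3, 7.22 and 8.03 CPM in HP1γ KO replicates. St6galnac1, at 25.0, 21.5, 29.9 and 31.2 CPM in HP1γ KO, did not follow the order of its WT samples. Whether same-numbered WT and KO samples pair was not tested. Without HP1γ KO replicate 3 or 4, the number called lower was 113 or 124. Of the 235 genes called higher between the WT samples, 224 were tested between the KO samples, 222 differed in the same direction and 145 (64.7%) again passed both thresholds in that direction. Their median log2 difference was 1.32 between WT and 1.25 between KO samples. Of the 47 called lower, 42 were tested, 40 differed in the same direction and 11 (26.2%) passed both thresholds, with medians of -1.38 and -0.92. None of the called genes passed the test of the difference between the WT and KO values (interaction in edgeR's quasi-likelihood test on all 16 samples, 8 of 15776 genes with an adjusted p under 0.05, 0.0507%, and 1511 with an unadjusted p under 0.05). Jag1, a Notch ligand, had a log2 difference of 1.33 between WT and 3.51 between KO samples, and Ifitm1, an interferon-inducible membrane protein, 2.51 and 0.70.

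**Figure D1:**
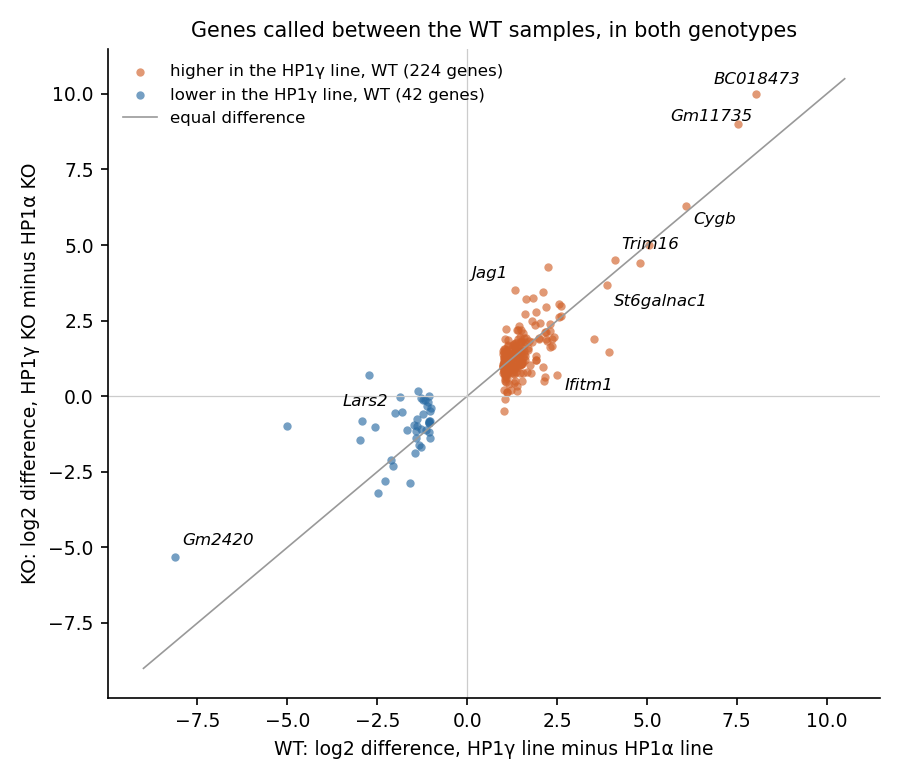
Log2 difference between the HP1γ and HP1α lines in WT samples (horizontal) and in KO samples (vertical) for the 266 called genes tested in both, each point a gene and the line marking equal differences. BC018473, Gm11735, Cygb, Trim16 and St6galnac1 lie far up the line, and Gm2420 lies lowest.

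Of the 10 genes called higher with the smallest p, 7 lay in 2 neighbourhoods of chromosome 11. Between Cygb and Mettl23, over 209 kb of GRCm39 (chr11:116535970-116745089), 7 of 10 genes tested were called, against 1.90% of all genes, and all 7 were also called in the same direction between the KO samples. The neighbourhood holds the sialyltransferases St6galnac1 and St6galnac2, which add sialic acid to O-linked glycans. St6galnac1 (ENSMUSG00000009588, chr11:116655851-116666333, protein coding) was at 2.66, 2.04, 2.98 and 2.37 CPM in the 4 WT samples of the HP1α line and at 43.0, 36.8, 34.4 and 32.2 CPM in those of the HP1γ line. Every HP1γ line sample was more than 10 times the highest HP1α line sample. The log2 difference was 3.88 (SE 0.14, adjusted p = 3.97e-07, edgeR), the smallest p of all genes, and KO samples showed means of 2.14 ± 1.03 and 26.9 ± 4.50 CPM (SD, n = 4).

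St6galnac2 has 2 identifiers in the annotation that overlap on the same strand and share 2572 bases of transcript, so that reads may have been split between them and their separate levels are uncertain. The longer one (ENSMUSG00000057286) had 4.03, 1.59, 2.75 and 2.31 CPM in the HP1α line and 120, 104, 59.4 and 68.0 CPM in the HP1γ line, with a log2 difference of 5.05 (SE 0.31, adjusted p = 1.95e-05, edgeR). The shorter one (ENSMUSG00000110170) had 0.553 ± 0.209 and 15.5 ± 7.85 CPM (SD, n = 4), with a log2 difference of 4.82. Both were separate in all samples, with the upper values in HP1γ WT replicates 1 and 2 for the longer one.

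Genes near the sialyltransferases differed as much. BC018473, a long non-coding RNA, was at 0.0625, 0.554, 0.331 and 0 CPM in the HP1α line and at 83.2, 77.0, 48.0 and 58.7 CPM in the HP1γ line (log2 difference 8.04, SE 0.42, adjusted p = 6.39e-06, edgeR). The pseudogene Gm11735 held at most 3 counts in each HP1α line sample and 2.85, 2.22, 1.43 and 1.98 CPM in the HP1γ line, at least 22.6-fold higher when set against 3 counts per library. Cygb, which encodes the haem protein cytoglobin, was at 0, 0.126, 0.0367 and 0.19 CPM in the HP1α line and at 8.56, 9, 2.83 and 5.41 CPM in the HP1γ line (log2 difference 6.09, SE 0.59, adjusted p = 0.000678, edgeR). It overlaps Prcd on the other strand. These 5 genes, counting both St6galnac2 identifiers as 1, were called higher whichever of the 8 samples was left out.

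Mettl23, a predicted methyltransferase gene at the far end of the neighbourhood, went the other way. It was at 37.3, 42.3, 38.5 and 37.9 CPM in the HP1α line and at 12.7, 14.4, 23.7 and 25.4 CPM in the HP1γ line (log2 difference -1.03, SE 0.20, adjusted p = 0.0114, edgeR; -1.37 between KO samples). Its log2 difference was no longer beyond -1 without HP1α WT replicate 2, HP1γ WT replicate 1 or HP1γ WT replicate 2, and stayed between -1.2 and -0.88. Mettl23 overlaps Mfsd11 on its own strand and Jmjd6 and Srsf2 on the other. The genes between and around the called ones moved little. Snhg16, a host of small nucleolar RNAs that overlaps St6galnac2 on the other strand, differed by 0.15 (adjusted p = 0.351) and the splicing factor gene Srsf2 by 0.05 (adjusted p = 0.742, edgeR). Jmjd6, an arginine demethylase and lysyl hydroxylase gene, differed by -0.35 (adjusted p = 0.0313), Mfsd11 by -0.40 (adjusted p = 0.0677), and beyond Cygb, at lower coordinates, Rhbdf2 differed by 0.30 and Ube2o by 0.44 (adjusted p = 0.115 and 0.0222, edgeR).

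**Figure D2:**
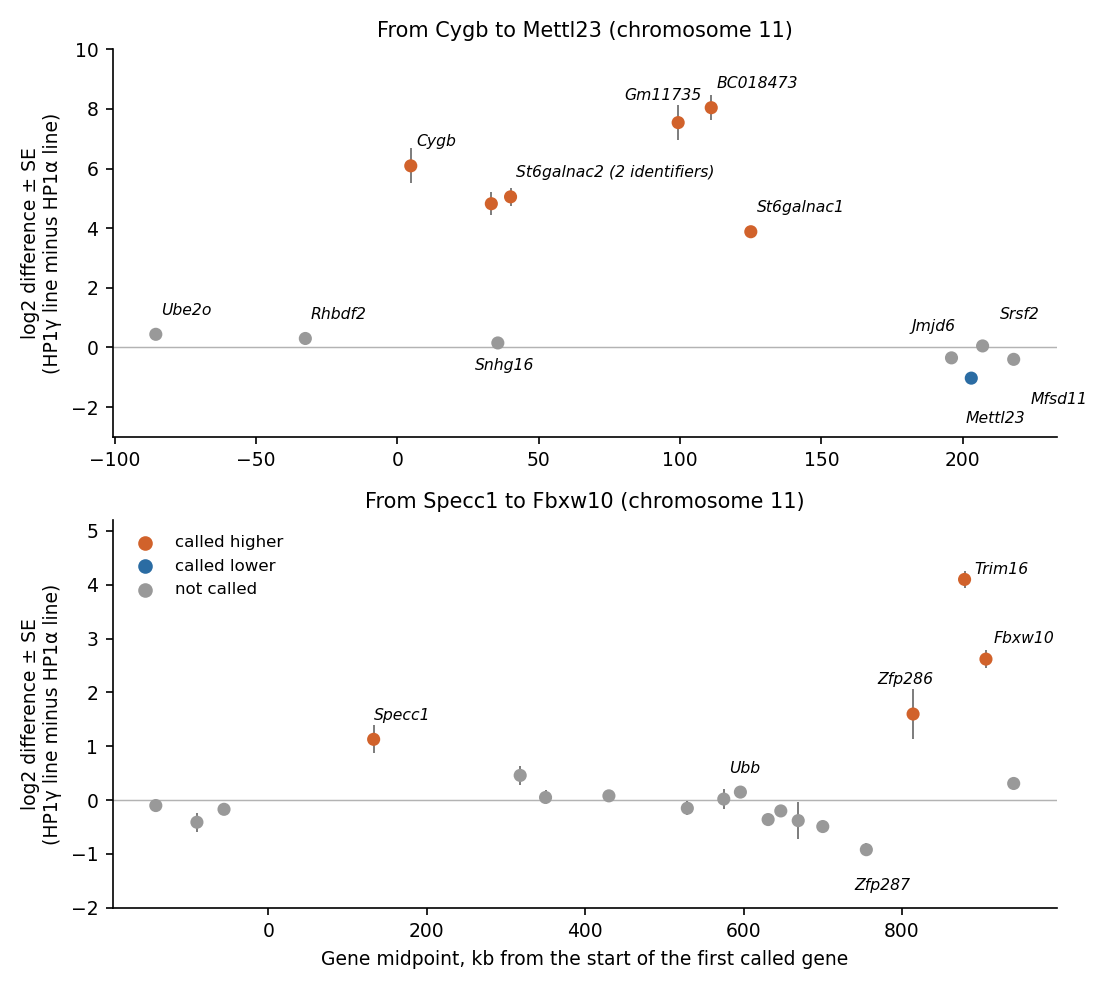
Log2 difference (HP1γ line minus HP1α line, with SE) of each gene tested in and around 2 neighbourhoods of chromosome 11, against the distance of the gene's midpoint in kb from the start of the first called gene. In the upper panel 6 points lie between 3.88 and 8.04 while Snhg16, Jmjd6 and Srsf2 lie near 0, and in the lower panel Trim16 and Fbxw10 stand above their neighbours.

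St6galnac1 and the St6galnac2 identifiers were the 3 called among 16 tested identifiers of the sialyltransferase family, against 1.90% of all genes. All 3 lie in the neighbourhood above and the St6galnac2 identifiers overlap, so the count describes a single locus and not the family. The median log2 difference of the family was -0.01. St3gal1, which sialylates the core of O-linked glycans, differed by -0.49 (adjusted p = 0.0183) and St6galnac3 by 0.45 (adjusted p = 0.0412, edgeR). Of 23 other genes of mucin-type O-glycan synthesis, none was called. At an adjusted p under 0.05, Cmas (0.41), B4galt1 (0.23) and B3gnt3 (0.59) were higher, and Neu1 (-0.31) and Galnt6 (-0.28) lower.

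A second neighbourhood on chromosome 11, chr11:61847582-62768295, ran over 921 kb from Specc1 to Fbxw10 and held 4 called genes among 15 tested, all 4 of them also called between the KO samples. Trim16 (ENSMUSG00000047821), a tripartite motif protein with a role in the autophagy of damaged membranes, was at 1.94, 1.54, 1.73 and 1.17 CPM in the HP1α line and at 31.1, 28.3, 22.2 and 27.4 CPM in the HP1γ line (log2 difference 4.10, SE 0.16, adjusted p = 5.54e-07, edgeR). Fbxw10, an F-box protein gene, was at 0.969, 1.08, 0.845 and 0.916 CPM against 4.93, 6.32, 5.93 and 6.41 CPM (log2 difference 2.62, SE 0.17, adjusted p = 3.8e-05, edgeR). Both genes lie on the same strand and overlap, so that part of the reads of either may belong to the other. No sample of one line reached the level of the other for either gene, and neither call was lost when a sample was left out.

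The other called genes of this neighbourhood were weaker. Specc1 differed by 1.13 (adjusted p = 0.0236) and lost its call without HP1α WT replicate 1, 2 or 4 or HP1γ WT replicate 2, with an adjusted p of up to 0.0783 in edgeR's test. Zfp286, at 0.0938 to 0.331 CPM and 0.292 to 0.699 CPM, overlapped between lines and lost its call in 7 of 8 such fits. Between them, the zinc finger gene Zfp287 was lower in the HP1γ line by adjusted p alone, with 33.8, 32.3, 28 and 27.2 CPM against 14.3, 13.8, 18 and 18.3 CPM (log2 difference -0.92, SE 0.12, adjusted p = 0.00259, edgeR). The ion channel gene Trpv2 differed by -0.36 (adjusted p = 0.00706) and Mmgt2 by -0.49 (adjusted p = 0.0117), whereas Ubb, which encodes ubiquitin, differed by 0.15 (adjusted p = 0.306, edgeR). Ubb-ps, on chromosome 14, was called higher (2.18, adjusted p = 7.38e-06) and shares 685 bases with Ubb, so that its level is uncertain.

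The promoter of Fbxw10, from before to just after the start of the gene in RefSeq on GRCm38.p6, chr11:62846873-62847172 (plus strand), is shown because it is the member of the pair with Trim16 for which the table of promoters holds an entry. The capitals that mark a motif in the promoters further down are absent from it, since it holds no TGACGTCA.
Fbxw10: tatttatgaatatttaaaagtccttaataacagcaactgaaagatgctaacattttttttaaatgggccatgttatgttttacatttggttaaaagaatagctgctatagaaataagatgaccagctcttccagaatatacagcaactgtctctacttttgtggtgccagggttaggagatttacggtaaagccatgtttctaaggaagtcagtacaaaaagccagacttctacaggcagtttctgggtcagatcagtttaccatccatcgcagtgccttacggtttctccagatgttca

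Besides these, 6 neighbourhoods had at least 3 called genes, each within 1 Mb of the next. In all, 8 neighbourhoods held 31 of the 277 called genes with a position. On chromosome 5, the run from Gm38082 to Ufsp1 held 4 of 15 genes, including Ache, which encodes acetylcholinesterase (2.55, adjusted p = 0.00378, edgeR), at 0.219, 0.0756, 0.184 and 0.0948 CPM in the HP1α line and at 0.81, 0.841, 0.973 and 0.729 CPM in the HP1γ line. On chromosome 7, the run from Pwwp2b to Ifitm1, with Olfr60 and Adam8 between them, held 4 of 24 genes. Adam8, a membrane-anchored protease gene, was at 26.2, 16.7, 28.9 and 23.2 CPM in the HP1α line and at 50.8, 52.4, 48.1 and 61.6 CPM in the HP1γ line (log2 difference 1.17, adjusted p = 0.00271, edgeR), with no overlap between lines. Ifitm1, in contrast, was at 1.25, 0.378, 1.29 and 0.916 CPM against 5.61, 12.5, 2.01 and 1.31 CPM, so that HP1γ WT replicates 1 and 2 stood above the rest and its call was lost in 6 of 8 fits that left out a sample. On chromosome 17, all 3 genes tested in 222 kb were called, namely Epas1, which encodes the hypoxia-inducible factor HIF-2α, and the predicted genes Gm50008 and Gm50012. Gm50008 overlaps Epas1 on the same strand and Gm50012 overlaps Rhoq, so that reads may be shared and these are not 3 separate measurements. Epas1 was at 14.6, 14.1, 22.5 and 21.0 CPM against 52.8, 49.7, 24.9 and 34.8 CPM (log2 difference 1.17, adjusted p = 0.0139, edgeR; adjusted p = 0.0529 without HP1α WT replicate 1), and 0 of the 3 genes were called between the KO samples. Gm50008 and Gm50012 lost their calls in 6 of 8 fits each.

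Called genes were spread over all chromosomes but the mitochondrial one, from 0.662% of the genes tested on chromosome X to 2.92% on chromosome 5, and chromosome 11 as a whole, with 1.83%, was near the 1.90% of all genes. The 10 Mb on either side of the targeted genes were examined in the same way. Around Cbx5, on chromosome 15, 4 of 127 genes were called (3.15%), including the keratin gene Krt83 (1.30, adjusted p = 0.00182, edgeR), which alone lay within 5 Mb, and around Cbx3, on chromosome 6, 1 of 95 (1.05%), the homeobox gene Evx1. Cbx5 was at 37.8, 54.0, 35.7 and 33.8 CPM in the HP1α line and at 27.1, 27.4, 33.5 and 37.4 CPM in the HP1γ line (log2 difference -0.36, SE 0.15, adjusted p = 0.143, edgeR). Cbx3, which is floxed in the HP1γ line, was at 84.5, 112, 81.8 and 75.6 CPM and 92.5, 90.2, 73.4 and 82.0 CPM (log2 difference -0.06, SE 0.12, adjusted p = 0.76, edgeR), and the lines overlapped for both genes. Cbx1 differed by -0.41 (adjusted p = 0.0199), and this adjusted p rose to as much as 0.0718 when a sample was left out.

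Among 31 heterochromatin genes tested, 0 were called. By adjusted p alone, the H3K9 methyltransferase Suv39h2 was higher (0.98, adjusted p = 0.00655), while Cbx1, the H3K9 methyltransferase Setdb1 (-0.36, adjusted p = 0.0214), the DNA methyltransferase Dnmt1 (-0.32, adjusted p = 0.0415) and Morc3 (-0.40, adjusted p = 0.0446, edgeR) were lower. The 4 lower genes numbered 0 without HP1α WT replicate 1, HP1γ WT replicate 1 or HP1γ WT replicate 2 and 1 without HP1α WT replicate 2 or 4.

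Genes of the circadian clock were higher in part. Of 17 tested, 3 were called higher, against 1.59% of all genes, and 10 (58.8%) were higher by adjusted p alone, with 0 lower, against 8.25% higher by adjusted p among all genes. Their median log2 difference was 0.81, against -0.02 for all genes. Bhlhe40, a transcriptional repressor of the clock that also controls cytokine production by T cells, was at 945, 866, 1050 and 830 CPM in the HP1α line and at 2030, 2000, 1540 and 1850 CPM in the HP1γ line (log2 difference 1.01, SE 0.10, adjusted p = 0.00103, edgeR). All samples were separate, and the value stayed between 0.96 and 1.09 when a sample was left out, falling under 1 without HP1α WT replicate 2 or 4 or HP1γ WT replicate 1 or 2. Its paralog Bhlhe41 was at 1.03, 0.731, 1.43 and 0.663 CPM against 5.54, 4.64, 2.43 and 1.95 CPM (log2 difference 1.92, SE 0.38, adjusted p = 0.0127, edgeR).

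The negative limb of the clock was represented by period and cryptochrome genes. Per2 was at 9.75, 9.55, 10.2 and 11.2 CPM and 28.1, 27.3, 16.4 and 17.1 CPM (log2 difference 1.13, SE 0.18, adjusted p = 0.00553, edgeR). Cry2 was at 20.4, 17.5, 23.2 and 20.3 CPM and 42.7, 40.3, 38.3 and 36.0 CPM (log2 difference 0.95, SE 0.10, adjusted p = 0.00103, edgeR). Per1 was higher by 0.48 (adjusted p = 0.0463). The nuclear receptors of the clock showed the same direction, with 0.99 for Nr1d2, 0.81 for Nr1d1 and 0.92 for Rora, as did the leucine zipper genes Nfil3 (0.93) and Hlf (0.83), with adjusted p between 0.00338 and 0.0183 (edgeR). The activators Clock and Arntl differed by 0.07 and 0.22, the third period gene, Per3, by -0.48 and Dbp, an output of the clock, by -0.37, all with adjusted p above 0.05. The number called was 2 without HP1α WT replicate 2, HP1γ WT replicate 1 or HP1γ WT replicate 2 and without HP1α WT replicates 2 and 3 together, 5 without HP1α WT replicate 3 or HP1γ WT replicate 4, and 6 without HP1γ WT replicate 3. Between the KO samples, 7 of the 17 genes were called higher. Leaving out one sample at a time kept 8 to 10 of the genes at an adjusted p under 0.05, and 4 of the 17 remained when HP1α WT replicates 2 and 3 were both left out.

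**Figure D3:**
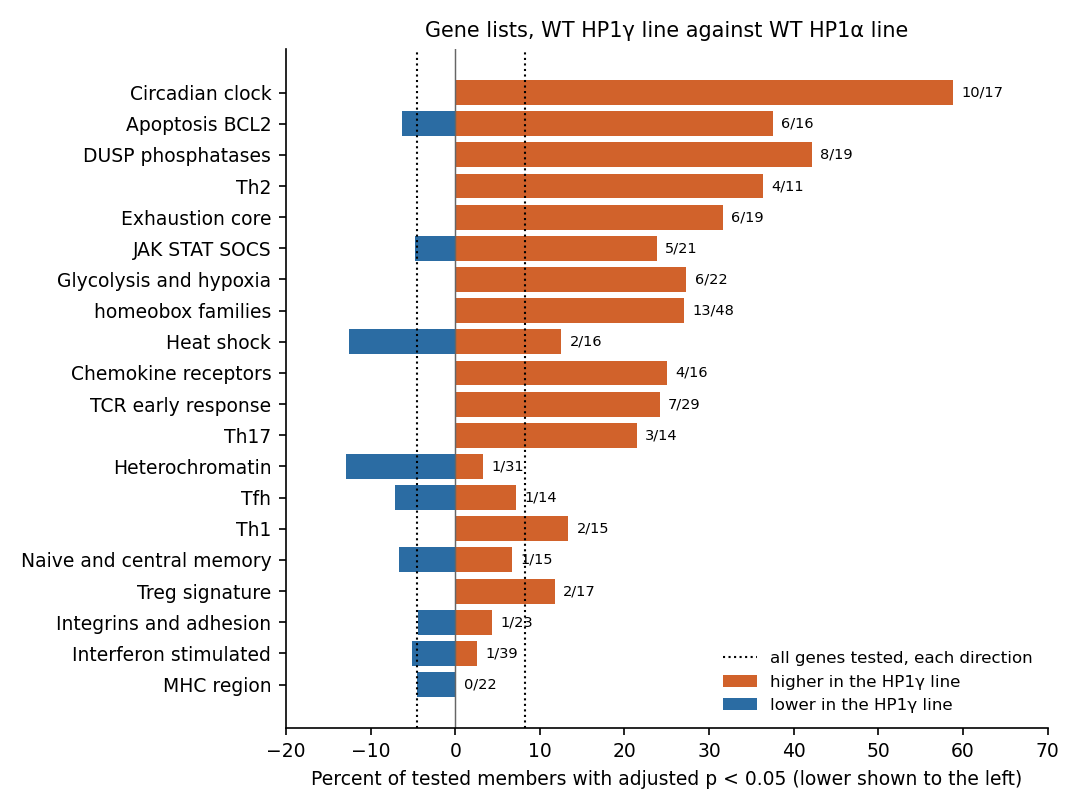
Percent of the tested members of 20 gene lists with an adjusted p under 0.05, to the right for genes higher and to the left for genes lower in the HP1γ line, with the number higher of those tested beside each bar. Dotted lines give the same for all genes, 8.25% and 4.55%, and the clock list reaches farthest to the right with 10 of 17.

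Genes induced early after T cell receptor engagement were partly higher. Of 29 tested, 3 were called higher (Irf4, Fosl2 and Nr4a3), 7 were higher by adjusted p and 0 lower, with a median of 0.18, against 1.59% called higher and 8.25% higher by adjusted p among all genes. Those by adjusted p numbered 2 without HP1α WT replicate 1 and 4 without HP1γ WT replicate 1 or 2. Irf4, a transcription factor whose level follows the strength of the receptor signal, was at 131, 113, 186 and 178 CPM in the HP1α line and at 296, 393, 289 and 284 CPM in the HP1γ line (log2 difference 1.06, SE 0.17, adjusted p = 0.00569, edgeR). Fosl2, an AP-1 subunit, was at 278, 232, 446 and 529 CPM against 1030, 908, 658 and 803 CPM (log2 difference 1.19, SE 0.24, adjusted p = 0.0141, edgeR). Nr4a3, an orphan nuclear receptor, was at 296, 213, 626 and 739 CPM against 1540, 1440, 878 and 995 CPM (log2 difference 1.37, SE 0.36, adjusted p = 0.034, edgeR).

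For Fosl2 and Nr4a3 the lines did not overlap, but HP1α WT replicates 3 and 4 were close to HP1γ WT replicates 3 and 4. The number of early response genes called was 0 without HP1α WT replicate 1, 1 without HP1α WT replicate 2 and 1 without HP1γ WT replicate 2. Nr4a2 (0.82), Rgs2 (0.88), Dusp5 (0.65) and Egr3 (0.40) were higher by adjusted p alone. The immediate early genes of the AP-1 family did not pass the test, with -0.39 for Fos (adjusted p = 0.14), -0.42 for Jun (adjusted p = 0.115), 0.11 for Fosb and 0.03 for Junb, nor did Egr1 (0.23), Myc (0.03) and Cd69 (0.08). Orai1, the pore of the calcium channel opened by the receptor, was outside the list and was called higher, with 65.1, 61.5, 96.3 and 91.1 CPM against 194, 194, 146 and 156 CPM (log2 difference 1.14, SE 0.16, adjusted p = 0.00351, edgeR).

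Dual specificity phosphatases, which switch off MAP kinases, were examined after their values were seen. Of 19 tested, 5 were called higher and 0 lower, against 1.59% called higher among all genes. Dusp8 was at 5.91, 3.35, 8.49 and 6.89 CPM in the HP1α line and at 25.3, 21.7, 28.2 and 21.7 CPM in the HP1γ line (log2 difference 1.99, SE 0.23, adjusted p = 0.00175, edgeR). Dusp14 differed by 1.28, Dusp4 by 1.02, Dusp16 by 1.31 and Dusp18 by 1.02, with adjusted p between 0.013 and 0.0348. Only Dusp8 and Dusp14 kept their call whichever sample was left out, and the count was 2 without HP1α WT replicate 1, HP1α WT replicate 2 or HP1γ WT replicate 1 and 3 without HP1α WT replicate 4 or HP1γ WT replicate 2.

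The transcription factors Atf3 and Crem, which bind cyclic AMP response elements, were also called higher and were named after their values were seen. Atf3 was at 41.3, 26.0, 76.6 and 52.5 CPM against 150, 140, 134 and 131 CPM (log2 difference 1.5, SE 0.26, adjusted p = 0.00706, edgeR), with no overlap. Crem was at 14.5, 14.0, 30.3 and 26.5 CPM against 62.5, 65.8, 28.9 and 36.0 CPM (log2 difference 1.18, SE 0.31, adjusted p = 0.036, edgeR), with HP1α WT replicate 3 above HP1γ WT replicate 3, and its call was lost in 5 of 8 fits that left out a sample. The palindrome TGACGTCA, the full element, was searched on both strands in 300 bases of promoter sequence per gene. It was present in the promoters of 12 of the 143 genes called higher that have an entry (8.39%), in 0 of 16 called lower and in 363 of the 10124 genes tested (3.59%). Searched in the same way, CACGTG, the E-box bound by clock factors, was in the promoters of 13 of the 143 genes called higher (9.09%) and 11.5% of the genes tested, and in 5 of 15 of the clock list. TGANTCA, with N any base and so wider than the AP-1 motif that it includes, was in 9 of the 143 (6.29%), in 3 of 16 called lower and in 5.95% of the genes tested. A match is a description of these letters and not of binding.

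The 3 promoters with the element whose genes had the smallest p are those of Hic2, chr16:17233337-17233636 (plus strand), Dusp8, chr7:142095235-142095534 (minus strand), and Mcam, chr9:44134408-44134707 (plus strand), from RefSeq on GRCm38.p6, printed in the direction of transcription with the element in capitals. It starts 19 bases before the start of transcription in Hic2, 29 bases before it in Mcam, and Dusp8 holds 2 copies.
Hic2: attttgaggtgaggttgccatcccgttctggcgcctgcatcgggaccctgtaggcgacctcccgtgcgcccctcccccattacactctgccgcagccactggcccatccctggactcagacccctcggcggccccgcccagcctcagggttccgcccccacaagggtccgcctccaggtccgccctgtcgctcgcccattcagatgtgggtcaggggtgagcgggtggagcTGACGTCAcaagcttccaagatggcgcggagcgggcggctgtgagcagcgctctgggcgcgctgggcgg
Dusp8: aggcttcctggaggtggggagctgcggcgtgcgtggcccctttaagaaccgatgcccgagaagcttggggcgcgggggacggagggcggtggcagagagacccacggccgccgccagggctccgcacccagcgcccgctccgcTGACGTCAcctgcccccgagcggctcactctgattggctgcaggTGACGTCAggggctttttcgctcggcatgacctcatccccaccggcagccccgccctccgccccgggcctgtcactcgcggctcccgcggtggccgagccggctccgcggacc
Mcam: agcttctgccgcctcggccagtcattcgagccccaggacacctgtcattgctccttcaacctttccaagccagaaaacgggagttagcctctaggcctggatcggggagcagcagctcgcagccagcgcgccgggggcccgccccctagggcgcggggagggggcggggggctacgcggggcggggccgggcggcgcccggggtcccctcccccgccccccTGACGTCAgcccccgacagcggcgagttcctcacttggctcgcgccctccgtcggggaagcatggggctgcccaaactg
Hic2, a transcriptional repressor, was at 3.84, 3.30, 5.62 and 4.11 CPM in the HP1α line and at 11.1, 13.5, 10.6 and 10.9 CPM in the HP1γ line (log2 difference 1.46, adjusted p = 0.00173, edgeR). Mcam, an adhesion molecule, was at 0.844, 0.857, 1.25 and 1.04 CPM against 2.53, 2.78, 2.22 and 2.55 CPM (log2 difference 1.34, adjusted p = 0.006, edgeR). Both were separate in all samples.

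In the Th2 list, 3 of 11 genes tested were called higher, namely Ccr8, Ptgdr2 and Il13, and 0 lower, against 1.59% called higher among all genes. Ccr8, a chemokine receptor of Th2 and regulatory T cells, was at 7.34, 8.57, 13 and 11.1 CPM in the HP1α line and at 35.3, 33.1, 18.5 and 26.8 CPM in the HP1γ line (log2 difference 1.51, SE 0.22, adjusted p = 0.00396, edgeR). Ptgdr2, the prostaglandin D2 receptor CRTH2, stayed below 0.5 CPM in every sample (log2 difference 1.86, adjusted p = 0.0181, edgeR). It rested on 2 to 5 counts against 10 to 17 and was not called with DESeq2. The cytokine gene Il13 was at 0.50, 0.932, 0.845 and 0.474 CPM against 1.56, 2.83, 1.09 and 1.22 CPM (log2 difference 1.28, adjusted p = 0.0468, edgeR). Between the KO samples Ccr8 was called (1.07, adjusted p = 0.0126) and Il13 was not (0.91, adjusted p = 0.296, edgeR). Ptgdr2 was not tested there, with means of 0.211 CPM in HP1α KO and 0.187 CPM in HP1γ KO. The number of Th2 genes called was 1 without HP1α WT replicate 1, HP1α WT replicate 2, HP1γ WT replicate 1 or HP1γ WT replicate 2, and Ccr8 kept its call in all 8 fits. Areg, which encodes the growth factor amphiregulin, was higher by adjusted p alone (0.85, adjusted p = 0.0426). The lineage factor Gata3 differed by 0.13 (adjusted p = 0.282) and Il4 by 0.22 (adjusted p = 0.59).

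Il17f was the single Th17 gene called of 14 tested, with 1.09, 0.378, 0.771 and 1.64 CPM against 1.23, 3.82, 3.40 and 4.01 CPM. HP1γ WT replicate 1 lay within the range of the HP1α line, and the call was lost in 6 of 8 fits. In the Th1, Tfh and naive and central memory lists, 0 of 15, 0 of 14 and 0 of 15 genes were called. Ifng differed by -0.04 (adjusted p = 0.87) and Tcf7, a factor of naive and central memory cells, by -0.06 (adjusted p = 0.532, edgeR). By adjusted p, the sphingosine phosphate receptor S1pr1 was higher (0.74, adjusted p = 0.00378).

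Il10, an anti-inflammatory cytokine gene, was the single called gene of 17 in the regulatory T cell list, with 8.78, 15.5, 13.2 and 9.51 CPM in the HP1α line and 35.3, 21.6, 25.0 and 30.6 CPM in the HP1γ line (log2 difference 1.26, SE 0.20, adjusted p = 0.00527, edgeR). It did not overlap between lines and was called in all 8 fits that left out a sample. The chemokine receptor Cxcr4 was at 131, 155, 227 and 159 CPM against 383, 298, 281 and 448 CPM (log2 difference 1.07, SE 0.18, adjusted p = 0.00755, edgeR), and fell under a log2 difference of 1 without HP1α WT replicate 1 or HP1γ WT replicate 4. Of 16 chemokine receptors tested, Ccr8 and Cxcr4 were called, against 1.90% of all genes, and Ccr2 (0.58) and Ccrl2 (0.52) were higher by adjusted p. The median of the 16 was 0.36. Tnfsf11, which encodes the TNF family cytokine RANKL, was at 73.6, 83.6, 95.7 and 102 CPM against 211, 217, 141 and 149 CPM (log2 difference 1.02, SE 0.16, adjusted p = 0.0048, edgeR), falling under 1 without HP1α WT replicate 1 or 2 or HP1γ WT replicate 1 or 2. Tnfsf4, the OX40 ligand, was at 0.375, 0.504, 0.992 and 0.347 CPM against 3.11, 2.75, 1.49 and 1.58 CPM (log2 difference 2.02, SE 0.39, adjusted p = 0.0118, edgeR). Of 24 costimulatory genes, 0 were called, with Cd28 (0.60), Tnfrsf4 (0.82), Icos (0.48) and Sh2d2a (0.46) higher and Cd40lg (-0.44), Cd48 (-0.36) and Cd226 (-0.49) lower by adjusted p alone.

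**Figure D4:**
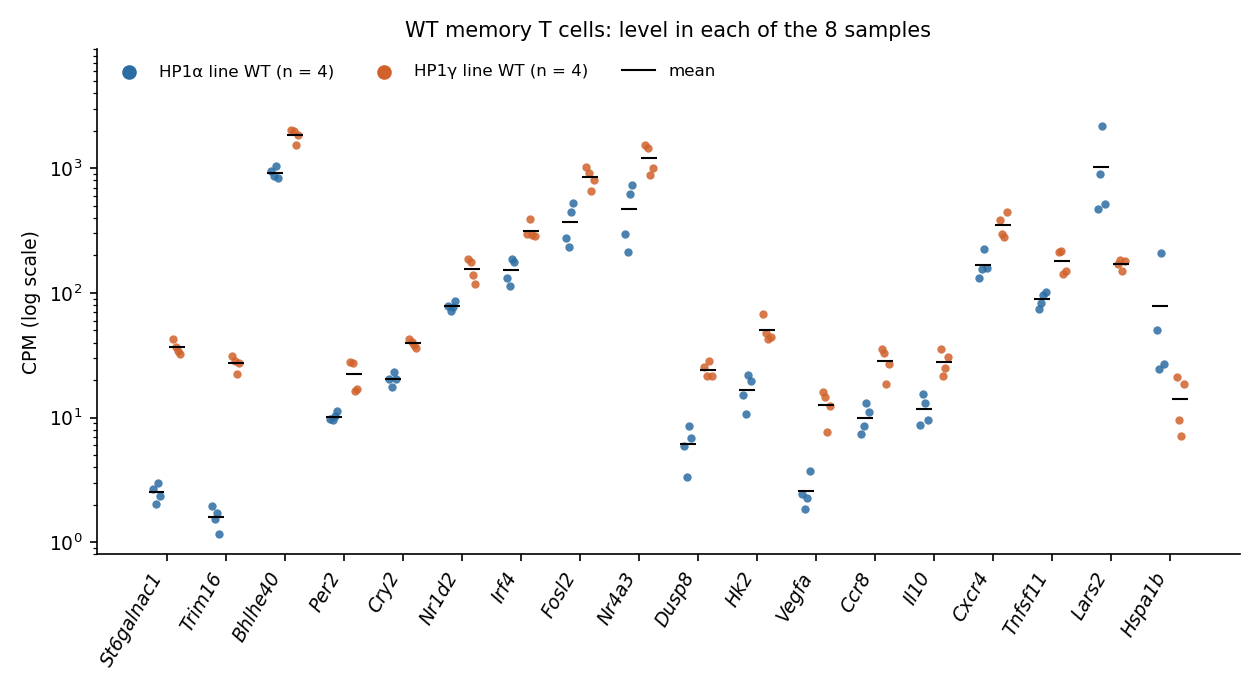
CPM on a log scale of 18 genes in each of the 8 WT samples, with 4 points per line and a bar at the mean. The points of the HP1γ line lie wholly below those of the HP1α line for Lars2 and Hspa1b and wholly above them for the other genes.

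Nr4a3 was also the single called gene of the 19 in the exhaustion list, in which genes including Eomes (0.68), Prdm1 (0.48), Nr4a2 (0.82) and Nfatc1 (0.30) were higher by adjusted p and 0 genes were lower. The inhibitory receptor gene Pdcd1 was at 24.6, 56.8, 43.6 and 24.9 CPM against 53.4, 33.6, 22.5 and 40.1 CPM (adjusted p = 0.997, edgeR), and Tox differed by 0.33 (adjusted p = 0.319). In the Th1 and exhaustion sets that the study compiled, 1 of 71 tested Th1 genes (Tnfsf4) and 1 of 84 tested exhaustion genes (Il10) were called, 1.41% and 1.19% against 1.90% of all genes. By adjusted p, 15 (Th1) and 18 (exhaustion) of them were higher, against 8.25% of all genes, and 2 and 1 lower. Leaving out a sample gave 8 to 17 Th1 genes, the fewest without HP1α WT replicate 1, with 9 without HP1γ WT replicate 1 or 2. It gave 4 to 20 exhaustion genes, with 4 without HP1α WT replicate 1, 10 without HP1α WT replicate 2, 7 without HP1α WT replicate 4 and 5 without HP1γ WT replicate 1 or 2. In the shorter exhaustion list, 1, 3, 3, 2 and 2 of the 6 genes were left in the same 5 fits.

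Metabolic genes with a difference included Hk2, which encodes the first enzyme of glycolysis and was the single called gene of 22 in the glycolysis and hypoxia list. It was at 15.2, 10.6, 21.8 and 19.5 CPM in the HP1α line and at 67.8, 48.1, 42.5 and 43.9 CPM in the HP1γ line (log2 difference 1.59, SE 0.22, adjusted p = 0.0034, edgeR). Hif1a (0.63), Egln3 (0.66), the glucose transporter gene Slc2a1 (0.44), Pfkp (0.39) and Pfkl (0.27) were higher by adjusted p, and the 6 genes of the list higher by adjusted p numbered 3 without HP1α WT replicate 1, HP1γ WT replicate 1 or HP1γ WT replicate 2. Vegfa, a target of hypoxia-inducible factors outside the list, was at 2.44, 1.86, 2.28 and 3.76 CPM against 16, 14.7, 7.69 and 12.4 CPM (log2 difference 2.30, SE 0.26, adjusted p = 0.00158, edgeR). In the polyamine pathway, a list added after the values were seen, 2 of 11 genes were called, against 1.90% of all genes. The median of the list was 0.09, and a count in a list chosen this way is not evidence on the pathway. Odc1, the rate-limiting enzyme, was at 1270, 976, 1290 and 1140 CPM against 2890, 2580, 2020 and 2030 CPM (log2 difference 1.02, SE 0.13, adjusted p = 0.00264, edgeR). Amd1, which supplies the aminopropyl donor and shares 3202 bases with Amd2, differed by 1.02 as well (adjusted p = 0.00474). The number of polyamine genes called was 1 without HP1α WT replicate 1 and 0 without HP1α WT replicate 2, HP1γ WT replicate 1 or HP1γ WT replicate 2, while 3 or 4 genes kept an adjusted p under 0.05.

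Genes of the Notch pathway were named after their values were seen, except Dtx4, which was among the 15 genes called higher with the smallest p. Dtx4, a Deltex ubiquitin ligase, was at 29.6, 28.9, 26.0 and 32.7 CPM in the HP1α line and at 77.0, 97.4, 68.2 and 68.5 CPM in the HP1γ line (log2 difference 1.41, SE 0.12, adjusted p = 0.000259, edgeR). Hey1, a Notch target, was at 28.1, 18.7, 25.7 and 24.6 CPM against 69.9, 50.9, 36.4 and 50.6 CPM (log2 difference 1.10, adjusted p = 0.00655, edgeR). Among BCL-2 family genes, Bmf was the single one called of 16 (1.23, adjusted p = 0.0447) and lost its call in 6 of 8 fits, while Bcl2l11, which encodes BIM, was higher by 0.75 (adjusted p = 0.00312, edgeR). Pxdc1, whose function in T cells is little known, was at 3.41, 3.68, 3.6 and 4.45 CPM against 20.2, 17.3, 12.4 and 15.1 CPM (log2 difference 2.10, adjusted p = 0.000133, edgeR). The long non-coding RNA ENSMUSG00000121185 and the predicted gene Gm27194 differed by 1.44 and 2.23 and were separate in all samples. Rybp, a Polycomb component among the genes with the smallest p, was at 41.5, 40.7, 44.5 and 48.0 CPM against 116, 109, 83.7 and 80.7 CPM (log2 difference 1.16, adjusted p = 0.0012, edgeR).

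Developmental regulators were called mostly at levels close to the detection limit. Homeobox genes, a family examined after its values were seen, had 279 members by symbol, of which 48 passed the filter on low counts. Of these 48, 9 were called higher and 0 lower, against 1.59% and 0.317% of all genes tested. Six4 was at 0.313, 0.126, 0.22 and 0.695 CPM against 2.27, 2.06, 1.49 and 1.49 CPM (log2 difference 2.43, adjusted p = 0.00921, edgeR). Hoxd1 held at most 3 counts in each HP1α line sample and between 0.433 and 1.10 CPM in the HP1γ line, at least 7.59-fold higher against 3 counts per library. Evx1, Pax9, Pou3f1, Hhex and Nkx2-3 were also called. The number called was 3 without HP1α WT replicate 1, 5 without HP1α WT replicate 4 and 4 without HP1γ WT replicate 1 or HP1γ WT replicate 2. Since a gene of this level may pass the filter through the line in which it is higher, the count is not evidence on the family as a whole.

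The genes called lower in the HP1γ line were of other kinds. RNA that lacks a poly(A) tail was among them. In a list put together after the values were seen, 5 of 9 tested identifiers were called lower, against 0.317% of all genes. Since members were picked with their values known, the count is not evidence on the class. The list also holds Lars2, which is annotated as protein coding. The 18S ribosomal RNA gene Rn18s-rs5 took 0.954%, 1.54%, 3.48% and 0.966% of the counts in the HP1α line and 0.41%, 0.438%, 0.41% and 0.439% in the HP1γ line (two-sided exact permutation p = 0.0286, the lowest possible with 4 samples a side), and differed by -2.01 on the log2 scale (adjusted p = 0.0096, edgeR). Lars2, whose locus holds sequence like ribosomal RNA, was at 475, 896, 2190 and 513 CPM against 172, 183, 151 and 179 CPM (log2 difference -2.57, adjusted p = 0.00665, edgeR). Rpph1, the RNA of RNase P, was at 9.09, 8.57, 28.5 and 5.09 CPM against 0.875, 1.58, 2.22 and 2.04 CPM (log2 difference -2.92, adjusted p = 0.00837, edgeR). HP1α WT replicate 3 was the highest sample for all 3, and no HP1γ line sample reached the HP1α line. Mir6236 (-2.97, adjusted p = 0.00761) and one identifier of Rmrp (ENSMUSG00000115420, -5.00, adjusted p = 0.0251) were the others. A second identifier of Rmrp overlaps it on the same strand, shares 271 bases and differed by -0.17 (adjusted p = 0.926), so that their reads may have been split, and the call was lost without HP1γ WT replicate 1 or 2. Outside the list, a 5.8S ribosomal RNA gene, 5_8S_rRNA, differed by -3.90 (adjusted p = 0.0147, edgeR). Between the KO samples Rn18s-rs5, Lars2 and Rpph1 differed by -0.55, -1.01 and -0.81, with adjusted p of 0.212, 0.0591 and 0.184. With HP1α WT replicates 2 and 3 left out, 131 genes were called higher and 16 lower in all, and the part of ribosomal RNA content in the other differences was not tested.

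The inducible heat shock genes Hspa1a and Hspa1b were the 2 called of 16 tested chaperone genes, both lower, against 0.317% called lower among all genes. The list as a whole was not lower. Its median log2 difference was 0.12, 10 of the 16 were above 0, and 2 were higher by adjusted p. Hspa1b was at 50.6, 24.7, 210 and 27.0 CPM in the HP1α line and at 21.1, 9.53, 7.08 and 18.6 CPM in the HP1γ line (log2 difference -2.48, SE 0.68, adjusted p = 0.0387, edgeR), and Hspa1a at 26.6, 9.02, 51.5 and 13.4 CPM against 9.63, 3.44, 1.34 and 6.41 CPM (log2 difference -2.28, SE 0.61, adjusted p = 0.0364, edgeR). They share 2201 bases, so that their reads cannot be fully told apart. HP1α WT replicate 3 was highest for both. Neither gene was called without HP1α WT replicate 1 or 3 or without any one of the 4 HP1γ WT samples, and the log2 difference of Hspa1b was then as small as -1.28.

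Other genes called lower included pseudogenes, unannotated transcripts, receptor segments and protein-coding genes. Gm2420, a pseudogene, was at 1.41, 0.806, 0.808 and 1.14 CPM in the HP1α line and at 0 in all 4 samples of the HP1γ line, at least 11.7-fold lower when 3 counts per library are set for the HP1γ line, and shares 746 bases with other predicted genes. Abhd1, a hydrolase gene, was at 7.5, 7.18, 9.29 and 7.2 CPM against 2.76, 2.68, 2.58 and 3.65 CPM (log2 difference -1.42, SE 0.16, adjusted p = 0.00158, edgeR). Zfp82, a zinc finger gene, was at 4.88, 5.37, 2.75 and 4.07 CPM against 1.65, 1.38, 1.88 and 2.13 CPM (log2 difference -1.28, adjusted p = 0.0096, edgeR). The ribosomal protein pseudogene Rps7-ps3 was at 168, 81.9, 90.1 and 23.5 CPM against 25.7, 21.7, 19.1 and 20.8 CPM (log2 difference -2.05, adjusted p = 0.0158, edgeR), with HP1α WT replicate 4 within the range of the HP1γ line. Rps7-ps3 shares up to 582 bases, its full length, with other genes, Rps7 among them, so that its level is uncertain. The identifier ENSMUSG00000095041, which has no symbol, Kctd21 and Mtus1 differed by -1.07, -1.68 and -1.03, with adjusted p of 0.00451, 0.013 and 0.0159, and did not overlap between lines. ENSMUSG00000095041 shares up to 1653 bases with other genes, Sfi1 and Pisd among them, so that its level is uncertain too. Of 329 numbered zinc finger genes tested, 4 were called higher and 1 lower, 1.52%. The T cell receptor segments Trbv23 (-2.13, adjusted p = 0.00814) and Trav13n-1 (-1.36, adjusted p = 0.0148, edgeR) were the single ones called of 22 and 92 tested. Trbv23 was also lower between KO samples (-2.10, adjusted p = 0.00222), whereas Trav13n-1, which shares 331 bases with Trav13d-1, differed there by 0.19 (adjusted p = 0.831).

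Several families known to vary between laboratory strains showed no called gene. These were the SLAM cluster (0 of 9), the Ifi200 cluster (0 of 11), the Ly49 cluster (0 of 5), the Nlrp1 and Naip genes (0 of 5), the MHC region (0 of 22) and a list of genes with known differences between 129 and C57BL/6 (0 of 8). Among all genes 1.90% were called, so lists this short may hold 0 by that share alone, and the loci are not shown to be alike. By adjusted p alone, 1 gene was lower in each of the SLAM, Ifi200 and MHC lists. Between the KO samples, 1 gene of the last list was called higher. Nnt, which carries a deletion in one substrain of C57BL/6, was at 14.4, 6.37, 8.12 and 9.44 CPM against 9.69, 19.0, 9.24 and 11 CPM (log2 difference 0.36, SE 0.28, adjusted p = 0.434, edgeR), with both lines overlapping. Of 39 interferon-stimulated genes, 0 were called, and Gbp3 (0.50) was higher and Ifit2 (-0.44) and Usp18 (-0.77) lower by adjusted p. In the JAK, STAT and SOCS list 0 of 21 genes were called, with Socs6 (0.77), Cish (0.71), Stat5a (0.54), Stat3 (0.33) and Stat4 (0.24) higher and Pias3 (-0.36) lower by adjusted p, of which 1 higher gene was left without HP1α WT replicate 1, HP1γ WT replicate 1 or HP1γ WT replicate 2, and 2 without HP1α WT replicate 2, HP1α WT replicate 4 or HP1γ WT replicate 4, and 3 without HP1α WT replicate 3. Of 17 cytotoxic and chemokine genes 0 were called, with the death ligand gene Fasl (0.82) and the chemokine gene Xcl1 (0.96) higher by adjusted p, and of 31 cell cycle genes the cyclin gene Ccne2 was called (1.02, adjusted p = 0.0069, edgeR). Ccne2 fell under a log2 difference of 1 without HP1α WT replicate 1 or HP1γ WT replicate 1 or 2. The cell cycle list went the other way, with a median of -0.16 and 9 of 31 genes above 0. The GIMAP (0 of 8), Schlafen (0 of 8), Ly6 (0 of 8) and histone (0 of 19) families held no called gene either.

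The samples of the HP1γ line did not contribute equally. The median of the 235 genes called higher, relative to each gene's mean over the 8 samples, was 0.72 and 0.68 on the log2 scale in HP1γ WT replicates 1 and 2 and 0.34 in each of replicates 3 and 4, and in the HP1α line it was -0.61, -0.65, -0.33 and -0.45. These values describe genes chosen for their difference. The same order was seen in single genes, for example Per2, Vegfa, Tnfsf11, St6galnac1 and Trim16, in which replicates 1 and 2 of the HP1γ line exceeded replicates 3 and 4. The share of mitochondrial transcripts was 2.81% and 2.47% in replicates 1 and 2 of the HP1γ line and 2.02% and 2.07% in replicates 3 and 4, against 1.74% to 2.57% in the HP1α line (exact permutation p = 0.6 between lines). B cell markers summed to 401 and 395 CPM in replicates 1 and 2 and to 321 and 313 CPM in replicates 3 and 4. The part of either in these values was not tested.

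**Figure D5:**
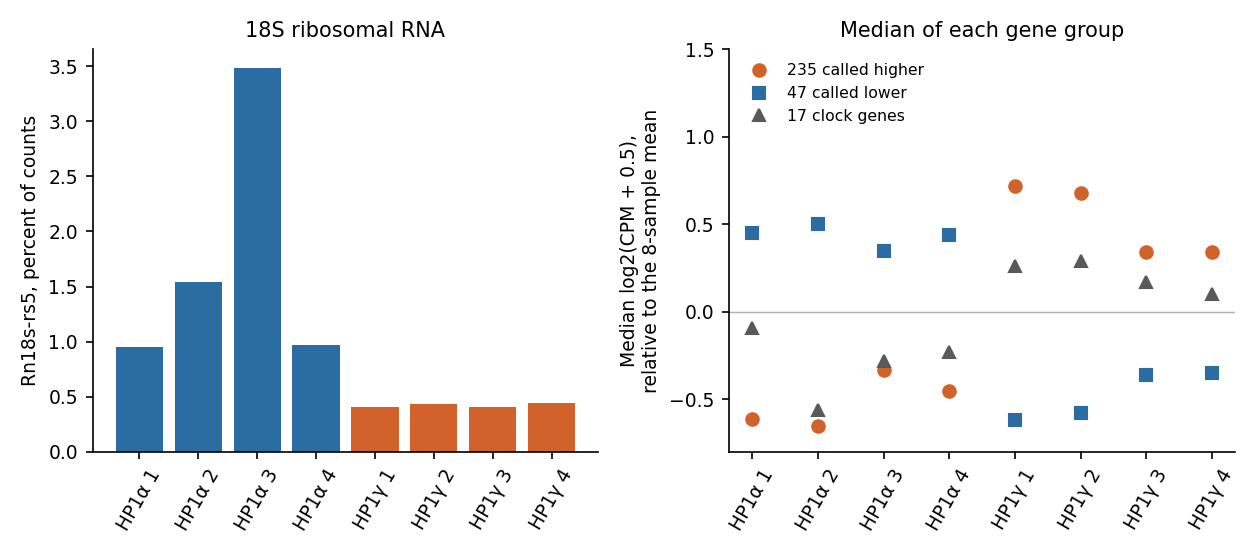
Left, percent of counts taken by Rn18s-rs5 in each of the 8 WT samples, highest in HP1α replicate 3 with 3.48%. Right, median of log2(CPM + 0.5) relative to the 8-sample mean for the genes called higher, the genes called lower and the 17 clock genes, with HP1γ replicates 1 and 2 farthest from the HP1α line for the called genes.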

How the data were processed

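RNA-Seq reads of memory CD4+ T cells were trimmed with Trim Galore, aligned to GRCm39 with STAR and quantified with Salmon by the authors, in the nf-core pipeline. The deposited values used here are estimated counts per gene without normalization (11.6% are not whole), and were rounded. The deposited TPM served only for 1 alternative. A stranded mRNA kit was used, and the strand setting of the counting is not given in the sources used here. Samples were grouped by their titles. The authors used DESeq2. Here the 8 WT samples were fitted with edgeR 4.0.16 in R 4.3.3 (TMM, filterByExpr with a minimum count of 10, estimateDisp, glmQLFit, glmQLFTest, Benjamini-Hochberg adjustment), without a replicate block. The KO samples were fitted alike, and the interaction in all 16. CPM were TMM-normalized over 16 samples. Folds against a line with at most 3 counts in each library were set against 3 counts per library, which covers counting error only. Per sample, 3 counts corresponded to 0.0756 to 0.11 CPM in the WT samples. Single values were compared by exact permutation. Nothing says that samples of a group came from separate mice, so p-values measure the spread between samples.

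Gene positions are from a GENCODE annotation of GRCm39, promoters from RefSeq. Shared sequence was searched with blastn 2.17.0 (at least 150 bases at 98% identity), and 113 of the 282 called genes shared such a stretch with another gene, antisense genes included. Genes were named by rule: the 15 called with the smallest p in each direction, called genes of the lists and of neighbourhoods with at least 4 called genes or within 5 Mb of Cbx5 or Cbx3, and Cbx1, Cbx3, Cbx5 and Nnt. Other genes, and the lists of phosphatases, homeobox genes, polyamine genes and RNA without poly(A), were chosen after values were seen. All members and lists were chosen with earlier results of these data known. Alternatives were DESeq2 1.42.0, RLE factors, other filters, all 16 samples, a replicate block, limma 3.58.1 on log2(TPM + 1), a robust fit, adjusted p alone, other gaps and windows, and the omission of samples. The tests were checked on simulated counts. Some genes that the rule names are not reported here.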

Additional observations from a re-analysis of the deposited data

Results flagged for a closer look

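In groups of 4 samples, a sample was singled out when its gap to the nearest other sample relative to the group's range exceeded Dixon's 95% critical value. Chance gives about 1 in 20 such groups, and 16 of 216 groups were singled out, over 97 genes and 11 values per sample. In the HP1α line, 5 of 9 were replicate 3, the highest sample for Hspa1b (210 CPM, others 24.7 to 50.6), Rmrp, an RNA of a mitochondrial RNase (15.5 CPM, others 0.781 to 1.64), Abhd1 (9.29 CPM, others 7.18 to 7.5), Dusp14 (20.4 CPM, others 9.06 to 10.9) and the erythroid marker sum (372 CPM, others 11.6 to 47.2). Replicate 1 of that line was highest for Trav13n-1 (2.59 CPM, others 1.43 to 1.54), lowest for Dusp18 (0.563 CPM, others 0.853 to 0.907) and the one sample with a read of Gm11735 (0.0313 CPM, others 0), and replicate 4 was lowest for Gm27194 (1.30 CPM, others 1.65 and 1.66).

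In the HP1γ line, replicate 2 was highest for total counts (in M, 40.2, others 32.3 to 33.4), Irf4 (393 CPM, others 284 to 296) and Hic2 (13.5 CPM, others 10.6 to 11.1). Replicate 1 was highest for Dusp14 (42.1 CPM, others 25.4 to 27.7), replicate 3 for Ubb-ps (110 CPM, others 77.5 to 81.9), and replicate 4 for Abhd1 (3.65 CPM, others 2.58 to 2.76) and a 5.8S ribosomal RNA gene (0.152 CPM, others 0.051 to 0.0648). Abhd1 in HP1γ replicate 4 and Dusp14 in HP1α replicate 3 still lay outside the range of the other line.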

How the results depend on the processing

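The number of genes called higher between the WT samples was 235. It was 108 with the replicate block, 84 with limma on log2(TPM + 1), 1222 by adjusted p alone and 131 without HP1α WT replicates 2 and 3, an alternative chosen after seeing the data, and ran from 109 to 288 when a sample was left out. The number called lower was 47, and 17, 18, 674 and 16 in the same alternatives, and 13 to 70 with a sample left out. With DESeq2 it was 274 and 58, and DESeq2 with a replicate block, added after seeing the data, gave 183 and 41. Between the KO samples, 446 to 724 genes were called higher and 68 to 124 lower when a sample was left out. Runs of at least 3 called genes numbered 15 with gaps of up to 2 Mb, against 8 at 1 Mb. Same-numbered WT samples of the HP1α and HP1γ lines did not deviate together (correlations of -0.204 to -0.1, mean -0.14). The number therefore does not pair WT samples across lines, and the block is given only here. Of 72 called genes of the lists and the naming rule, 36 kept their call in all 8 fits that left out a WT sample, 16 lost it in 1 to 3 and 20 in 4 or more. None changed direction in any alternative. Depth limits genes near 0.1 CPM, which rest on about 3 counts per library.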
